A study of Mus musculus with 15 samples.

Results

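Cytosolic ribosomal protein genes were examined in retinal microglia from Apoe-/- and wild-type (WT) mice whose eyes had received microbeads or a sham treatment. The members were the genes of the deposited gene table whose symbol is Rpl or Rps followed by a number, with the suffixes a, l, x, al or l1 allowed, and Rplp0, Rplp1, Rplp2 and Rpsa. Symbols ending in -ps were left out. The rule found 87 of 35735 genes, namely 46 of the large subunit, 30 of the small subunit and 11 paralogs or gene models with an l in the suffix. A filter on low counts kept 81 of them among the 6521 genes tested. The 6 that did not pass were Rpl10l, Rpl3l, Rpl39l, Rpl32l, Rpl6l and Rps4l.

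The groups were Apoe-/- microbead (n = 4), Apoe-/- sham (n = 4), WT microbead (n = 3) and WT sham (n = 4). All mice were C57BL/6 and 12 weeks old. Microbeads block fluid outflow and raise the pressure in the eye, a model of glaucoma, and Apoe-/- mice lack apolipoprotein E in every cell. Sorting for Fcrls, CD11b and absence of Ly6c selected resident microglia, 100 to 600 cells per retina, and each library is 1 retina. The labels do not say that the retinas came from separate mice, so p-values measure only how far these samples spread, which may be technical. Each genotype had its own plate letter in the sample names, so genotype and plate cannot be told apart.

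Ribosomal proteins coat the ribosomal RNA of the small subunit, which reads the mRNA, and of the large subunit, which forms the peptide bond. Their mRNAs are among the most abundant of most cells, and cells that grow or switch on secretion need more of them. Most of these mRNAs start with a run of pyrimidines (a terminal oligopyrimidine or TOP tract), through which the kinase complex mTORC1 and the RNA-binding protein Larp1 control their translation as a group.

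The bases around the start of 7 members are given to show what such a tract looks like, in 6 members with a long run and in 1 with a short one. The sequences are RefSeq's on GRCm38.p6, from 30 bases before to 20 bases after the start of the transcript, and capitals mark the longest run of C or T between 10 bases before and 15 bases after it.
Rps27 (chr3:90213629-90213678, minus strand): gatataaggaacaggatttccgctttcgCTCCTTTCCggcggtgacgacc
Rplp2 (chr7:141447621-141447670, plus strand): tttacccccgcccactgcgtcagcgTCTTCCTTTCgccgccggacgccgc
Rpl38 (chr11:114668550-114668599, plus strand): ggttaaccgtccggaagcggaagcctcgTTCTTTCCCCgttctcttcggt
Rps6 (chr4:86857348-86857397, minus strand): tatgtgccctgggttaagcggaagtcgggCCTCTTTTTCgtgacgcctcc
Rpl13a (chr7:45128726-45128775, minus strand): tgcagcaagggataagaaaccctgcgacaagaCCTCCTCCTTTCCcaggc
Rpl22l1 (chr3:28805478-28805527, plus strand): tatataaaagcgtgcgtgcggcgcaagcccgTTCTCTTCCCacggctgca
Rpl3l (chr17:24727796-24727845, plus strand): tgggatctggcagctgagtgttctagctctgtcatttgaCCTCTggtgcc
The run in that window was 9 bases in Rps27, 10 in Rplp2, Rpl38, Rps6 and Rpl22l1, and 13 in Rpl13a, against 5 in Rpl3l, a paralog known from muscle. In Rpl13a the marked stretch stops at the edge of the window, and the next base is also a C, so its tract is longer than marked. RefSeq starts were at hand for 64 of the 87 members, 76 starts in all. A run of at least 7 lay in that window at 32 of the 76 (42.1%), against 15.2% of 32851 starts of all genes. The median longest run was 5 bases at the members' starts and 4 at all starts, so most members' starts in RefSeq do not show a long run as those 6 do. In the 300 bases around the start, CCGGAAG, the motif of ETS factors such as GABPA, was present on either strand at 34.2% of the members' starts and 8.86% of all starts, and TATAAA at 10.5% and 13.6%. CTTCCGG, the other strand of the first motif, can overlap a pyrimidine run. These matches describe the letters of the windows only.

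Libraries held 458303 to 714838 gene reads, of which 40.8 to 74.4% lay on 12 gene models of the major satellite repeat. The remaining 117322 to 419472 reads included 1924 to 13801 on the 87 members. Apoe had 0 to 6 reads in the 8 Apoe-/- libraries, against 667 to 15125 in the 7 WT libraries. All 15 microglial markers were detected in each group, summing to 9846 to 18645 CPM per library (CPM, counts relative to the TMM-scaled library size). Rod photoreceptor markers summed to 104 to 2811 CPM, monocyte markers to 12.0 to 136 CPM and erythroid markers to 0 to 3.11 CPM. Genes of cell dissociation and early stress ranged from 184 to 9955 CPM.

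Per unit of transcript length, ribosomal protein mRNAs stood high among the genes of these cells. Mean TPM over the 15 libraries (TPM, abundance per transcript length on a scale with the same total in every library) was 243 TPM, rank 42 of all genes, for Rps29, a small zinc-binding protein of the small subunit. The stalk protein Rplp1 had 230.2 TPM and rank 47. The lowest tested members were Rpl7l1 (5.20 TPM), Rpl5 (5.81 TPM) and Rpl12 (9.55 TPM). Other genes with a like sequence (copies) held 94.0% of the reads of Rpl5 and its copies, and 81.1% for Rpl12. The TPM of Rpl5 and Rpl12 thus leaves most of those reads out. In every one of the 15 libraries the median TPM of the large subunit was below that of the small subunit, with a ratio of 0.557 to 0.820. Reads on copies are not in these medians, and the share on copies reached 94.0% in the large subunit (Rpl5) and 60.6% in the small subunit (Rps23). What part the copies play in the ratio was not tested. Reads on transcripts not annotated as coding, such as retained introns, made up 12.0 to 19.0% of the members' reads per library. For Rpl12 they were 93.2% and for Rpsa 80.8%, so the TPM of these genes does not stand for coding mRNA alone.

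Taken as a sum, the members' share of the reads outside the satellite was 1.59, 4.39, 3.07 and 2.02% in Apoe-/- microbead libraries, against 2.51, 1.64, 2.16 and 1.499% in Apoe-/- sham libraries. It was 2.63, 3.29 and 3.00% in WT microbead libraries, against 2.03, 2.37, 2.45 and 1.63% in WT sham libraries. In WT the lowest of the 3 microbead libraries exceeded the highest of the 4 sham libraries. In Apoe-/- the groups overlapped, with libraries 2 and 3 of the microbead group above every sham library and libraries 1 and 4 within the sham range. Exact binomial 95% intervals of these shares, which cover counting error only, ran from 4.29 to 4.50% in the highest library and from 1.44 to 1.56% in the lowest.

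**Figure D1:**
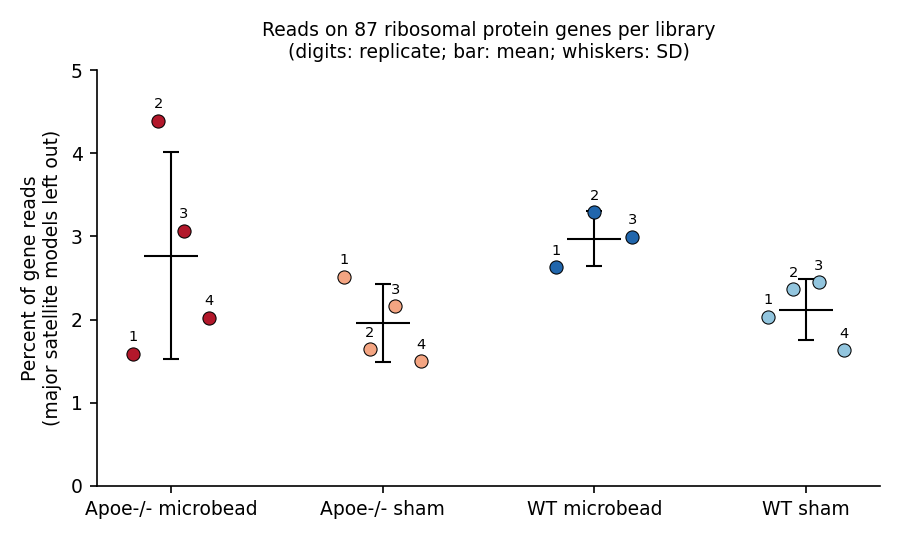
Percent of gene reads, with the major satellite models left out, that lay on the 87 ribosomal protein genes, 1 point per library, with the mean and SD of each group. The 3 WT microbead libraries lie above the 4 WT sham libraries, while the Apoe-/- microbead libraries spread from 1.59 to 4.39%.

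The question of the first comparison is whether raised pressure moves these genes in WT microglia. No member passed an adjusted p of 0.05 in WT microbead against WT sham libraries (edgeR quasi-likelihood test, Benjamini-Hochberg over all genes tested), where 13 of 6521 genes did (0.199%). DESeq2 called 0 members too. The log2 fold change was positive for 76 of 81 members, against 49.1% of all genes tested, and its median was 0.55 (interquartile range 0.41 to 0.69), against -0.01 over all genes. For 33 of 81 members (40.7%) every microbead library lay above every sham library, against 6.24% of all genes, and for 0 members was it the other way, against 4.29%. An unadjusted p under 0.05 was found for 19 members, against 7.87% of all genes. Members can shift together with a library, so these counts are not separate observations. No share was taken among genes of like read level.

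The 2 subunits gave like values. The median log2 fold change in WT was 0.56 over the 46 large subunit genes, with 44 positive, and 0.55 over the 30 small subunit genes, with 29 positive. Over the 5 tested paralogs and l-suffixed gene models, which include the processed pseudogene Rps12l1, it was 0.03, with 3 positive. The 5 members below 0 were Rpl5, Rpl12, Rps6, Rpl36al and Rps27l. Leaving out WT microbead library 2 gave a median of 0.41 with 70 positive, the lowest of the settings that leave out 1 library. It gave 4 members with an unadjusted p under 0.05, where 0 of 7001 genes were called. With all libraries 7.87% of all genes had such an unadjusted p. Leaving out WT microbead library 1 gave 58 of 81 members without overlap (71.6%) in place of 33, beside 13.5% of all genes.

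In the same WT libraries, the satellite took 53.5, 40.8 and 41.2% of gene reads after microbeads, against 60.0, 62.7, 55.9 and 66.6% after sham, so the groups did not overlap there either. With the satellite models left out of the library sizes the members' median was 0.57. Dissociation genes summed to 1554, 9270 and 5007 CPM in WT microbead libraries and 1517, 283, 4406 and 2756 CPM in WT sham libraries, and these groups overlapped. Rod markers summed to 689, 352 and 104 CPM in WT microbead libraries and 617, 599, 2360 and 2811 CPM in WT sham libraries, again with overlap. Monocyte markers summed to 35.0, 83.3 and 76.4 CPM in WT microbead libraries and 27.4, 25.2, 12.0 and 48.6 CPM in WT sham libraries, with library 1 of the microbead group within the sham range. The 4 endothelial markers summed to 25.7, 8.49 and 13.4 CPM in WT microbead libraries and 26.2, 32.6, 27.6 and 35.7 CPM in WT sham libraries, and the 3 erythroid markers were all at 0 in WT microbead libraries and summed to 1.20 to 2.15 CPM in WT sham libraries. The endothelial sums did not overlap between the groups. For the erythroid markers, a count of 0 allows up to 3.00 to 4.35 CPM in WT microbead libraries, taking 3 reads as the limit. That exceeds every erythroid sum of the WT sham libraries, so these sums do not tell the groups apart. What part the marker lists play in the result was not tested. In bulk samples, fewer cells of a type and less RNA per cell cannot be told apart.

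**Figure D2:**
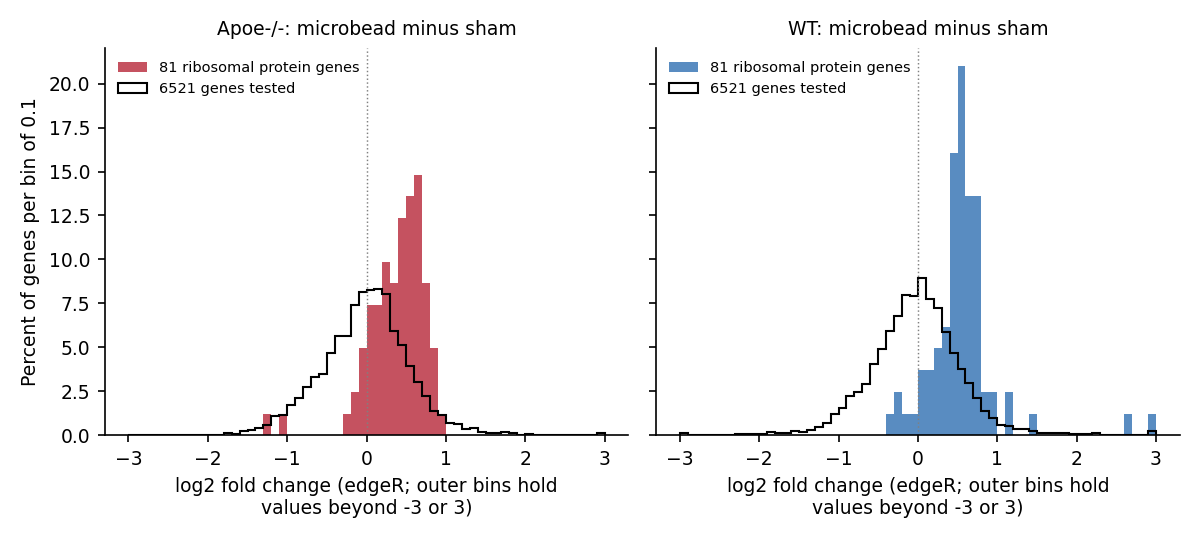
Histograms of log2 fold change (microbead minus sham, edgeR) for the 81 tested ribosomal protein genes (filled) and all 6521 genes tested (line), as percent of genes per bin, with Apoe-/- left and WT right. The ribosomal protein genes centre at 0.45 in Apoe-/- and 0.55 in WT, while all genes centre near 0.

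The same comparison in Apoe-/- microglia gave a similar median with more spread between libraries. No member and no other gene of the 6521 passed the threshold (0%), and DESeq2 called 0 members. The log2 fold change was positive for 72 of 81 members, against 50.8% of all genes, with a median of 0.45 (interquartile range 0.20 to 0.66), against 0.01 over all genes. For 0 members did the groups separate upward, against 1.55% of all genes, and for 0 downward, against 0.966%. Further, 8 members had an unadjusted p under 0.05, against 6.95%. The median rested on 1 library. Without Apoe-/- microbead library 2 it was 0.07, with 54 of 81 positive. Without Apoe-/- microbead library 1 it was 0.62, with 76 positive, 26 unadjusted p-values under 0.05 and 8 members (9.88%) separating upward, beside 3.79% of all genes. In that setting 0 of 6407 genes were called. The share of all genes with an unadjusted p under 0.05 is not given for that setting, and with all libraries it was 6.95%.

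The 4 Apoe-/- microbead libraries had median member levels of 76.7, 199, 144 and 83.8 CPM, against 122, 94.0, 95.6 and 70.4 CPM in Apoe-/- sham libraries. Libraries 2 and 3 of the microbead group, the high ones, also had the largest shares of mitochondrially encoded reads of the series, 0.869 and 0.889% of reads outside the satellite, against 0.227 to 0.593% in the other 13 libraries. They were low in dissociation genes, with 283 and 184 CPM, against 2834 and 9955 CPM in libraries 1 and 4. What part these play in the result was not tested.

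**Figure D3:**
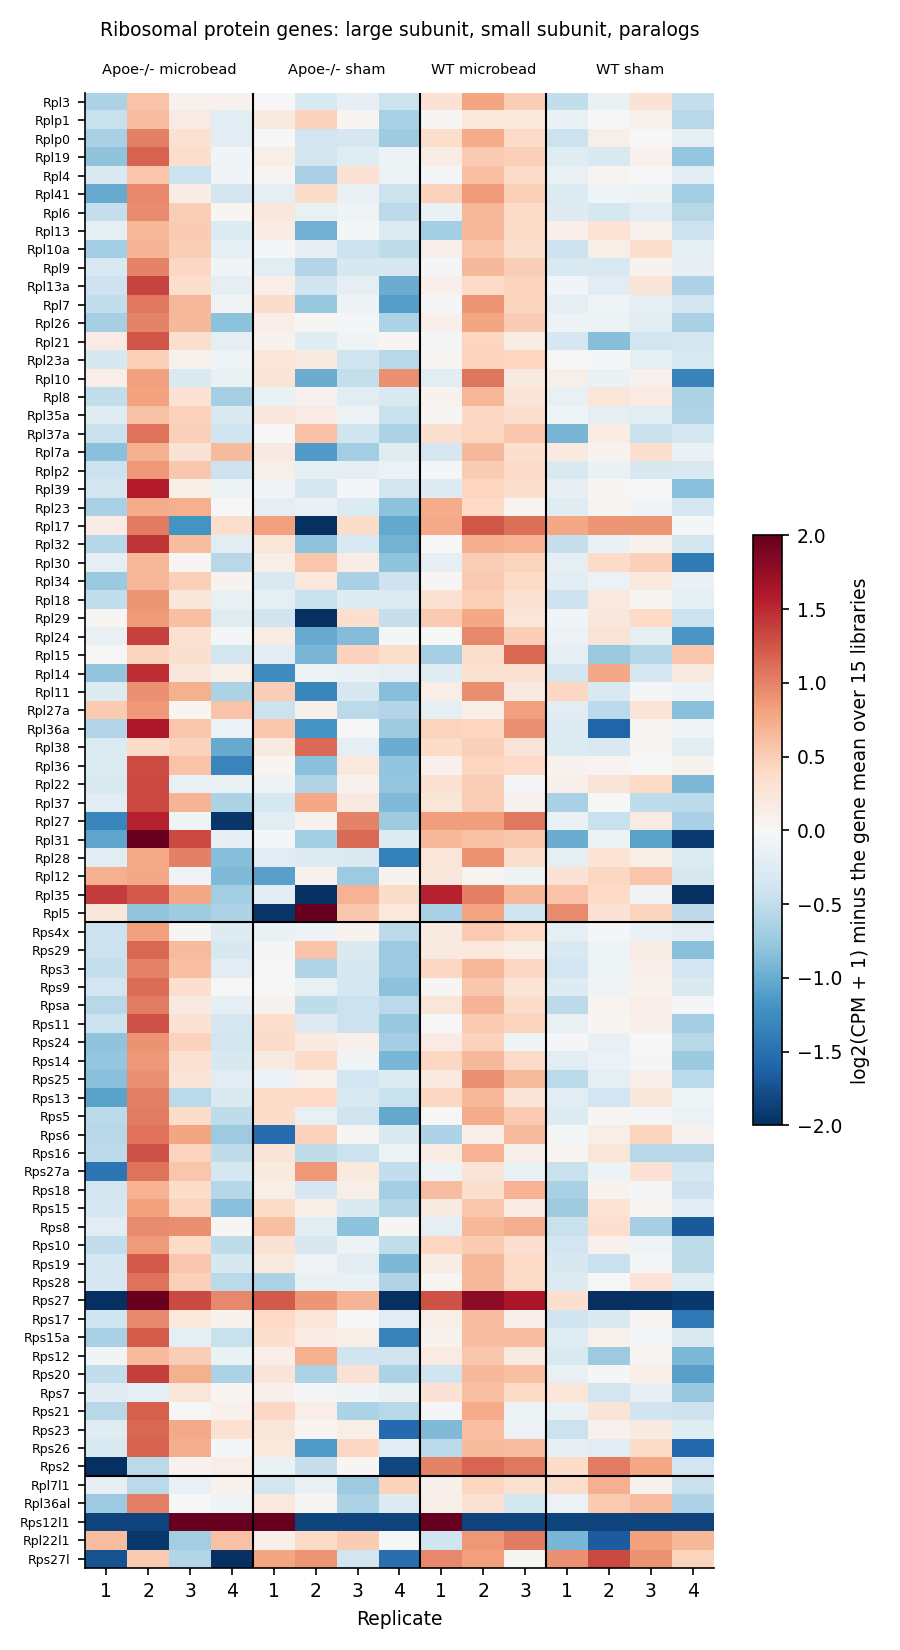
Levels of 80 of the 81 tested ribosomal protein genes in the 15 libraries, as log2(CPM + 1) minus the mean of each gene, with genes ordered by subunit and mean level. Most genes of Apoe-/- microbead libraries 2 and 3 are above their mean and most of libraries 1 and 4 below it, and Rps27 and Rps12l1 switch between very high and very low values within groups. Colours end at -2 and 2.

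Among the single members, the stalk proteins of the large subunit recruit the elongation factors. Rplp0, the base of the stalk, had 287, 376 and 292 CPM in WT microbead libraries, against 166, 243, 224 and 195 CPM in WT sham libraries. Its WT groups did not overlap, and the log2 fold change was 0.62 ± 0.32 (SE), with an unadjusted p of 0.0695 and an adjusted p of 0.675. In Apoe-/- it had 143, 451, 277 and 191 CPM after microbeads, against 224, 172, 177 and 136 CPM after sham, with a log2 fold change of 0.57 ± 0.31 (SE) and overlapping groups. Rplp2, one of the 2 acidic proteins bound to it, had 101.4, 149 and 136 CPM in WT microbead libraries, against 84.0, 94.7, 82.7 and 85.1 CPM in WT sham libraries, again without overlap, and a log2 fold change of 0.57 ± 0.30 (SE). In Apoe-/- the value of Rplp2 was 0.33 ± 0.29 (SE). Its partner Rplp1 overlapped in both genotypes, with 0.03 ± 0.28 (SE) in Apoe-/- and 0.28 ± 0.30 (SE) in WT.

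The smallest p-values in WT after Rps27, which is described with its copy, belonged to Rps25 and Rps7, both of the small subunit. Rps25, needed for initiation on some viral internal entry sites, had 166, 274 and 224 CPM in WT microbead libraries, against 99.7, 127, 154 and 98.9 CPM in WT sham libraries. All 3 microbead values lay above the sham values, and the log2 fold change was 0.88 ± 0.33 (SE), with an adjusted p of 0.511. Rps7, a small subunit protein that can also bind Mdm2, had 95.4, 118 and 103 CPM after microbeads, against 91.9, 60.0, 68.8 and 45.6 CPM after sham. The WT groups of Rps7 did not overlap, at a log2 fold change of 0.66 ± 0.25 (SE) and an adjusted p of 0.517.

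The smallest p-values in Apoe-/- belonged to Rpl27a, Rpl9 and Rps3. Rpl27a, a large subunit protein, had 75.3, 96.0, 53.6 and 77.5 CPM after microbeads, against 38.1, 55.9, 35.5 and 34.4 CPM after sham. Only the third microbead library fell within the sham range, and the log2 fold change was 0.91 ± 0.32 (SE), with an adjusted p of 0.6997. Copies of Rpl27a in other genes held 65.6% of its reads. Rpl9, near the base of the stalk, had 124, 306, 206 and 148 CPM in Apoe-/- microbead libraries, against 131, 102, 124 and 123 CPM in Apoe-/- sham libraries, a log2 fold change of 0.70 ± 0.28 (SE). Rps3, which lines the mRNA entry channel, had 134, 373, 284 and 159 CPM after microbeads, against 187, 123, 150.03 and 113 CPM after sham, at 0.72 ± 0.30 (SE). In WT the groups of Rps3 did not overlap, with 250.4, 297 and 249 CPM after microbeads, against 143, 175, 199 and 143 CPM after sham, and a log2 fold change of 0.69 ± 0.32 (SE).

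Rpsa, the small subunit protein also known as the laminin receptor, had a log2 fold change of 0.56 ± 0.31 (SE) in Apoe-/- and 0.52 ± 0.32 (SE) in WT, where its groups did not overlap. Rpl13a, which in human monocytes leaves the ribosome after interferon-gamma to silence certain mRNAs, had 0.74 ± 0.35 (SE) in Apoe-/- and 0.43 ± 0.36 (SE) in WT, with overlap in both genotypes. Rpl11, which with Rpl5 and a ribosomal RNA forms the particle that inhibits Mdm2, and which has 46.1% of its reads on copies, had 0.60 ± 0.39 (SE) in Apoe-/- and 0.43 ± 0.38 (SE) in WT. Rpl38, which favours translation of Hox mRNAs in mouse embryos, had estimates of opposite sign in the 2 genotypes. It had 39.4, 62.8, 66.1 and 23.3 CPM in Apoe-/- microbead libraries, against 54.7, 107, 41.8 and 23.5 CPM in Apoe-/- sham libraries, at -0.19 ± 0.38 (SE). In WT it had 62.3, 67.0 and 57.4 CPM after microbeads, against 39.5, 38.4, 49.2 and 40.9 CPM after sham, at 0.56 ± 0.37 (SE) and without overlap, and on the TPM scale the Apoe-/- value was positive.

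Paralogs can replace their partner in the ribosome, and several are known from testis or muscle. Rpl10l had 0 reads in all libraries, Rpl3l 3 and Rpl39l 9 over the 15 libraries. Rps4l, annotated as a transcribed processed pseudogene, had 84. Rpl3, Rpl7 and Rpl36a, each the partner of a paralog, and Rps4x, the relative of Rps4l, were well covered. Rpl3, a protein that reaches toward the peptidyl transferase centre, had a log2 fold change of 0.30 ± 0.27 (SE) in Apoe-/- and 0.70 ± 0.29 (SE) in WT. Rpl7 had 0.68 ± 0.35 (SE) in Apoe-/- and 0.70 ± 0.36 (SE) in WT. The X-linked Rps4x had 0.28 ± 0.27 (SE) in Apoe-/- and 0.52 ± 0.29 (SE) in WT, and Rpl36a 0.72 ± 0.45 (SE) in Apoe-/- and 0.96 ± 0.45 (SE) in WT. The WT groups of Rpl7, Rps4x and Rpl36a did not overlap. Of the expressed paralogs, Rpl22l1, Rpl36al and Rpl7l1 had 2.73 to 28.0, 20.7 to 71.0 and 26.1 to 72.8 CPM over all libraries, with overlapping groups in both microbead comparisons.

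Rps27 and its paralog Rps27l show how far a ribosomal protein gene can be told from its relatives, so their coding sequences are given, from the GENCODE annotation of mm10. Rps27 is at chr3:90212522-90213651 (minus strand), and Rps27l, which p53 activates, at chr9:66946086-66949516 (plus strand). Capitals in Rps27l mark the 61 of 255 bases that differ from Rps27.
Rps27: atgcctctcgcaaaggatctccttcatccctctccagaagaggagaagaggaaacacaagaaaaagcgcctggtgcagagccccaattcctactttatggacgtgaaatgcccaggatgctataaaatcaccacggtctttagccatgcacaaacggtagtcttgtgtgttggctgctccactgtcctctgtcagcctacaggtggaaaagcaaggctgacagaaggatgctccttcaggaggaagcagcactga
Rps27l: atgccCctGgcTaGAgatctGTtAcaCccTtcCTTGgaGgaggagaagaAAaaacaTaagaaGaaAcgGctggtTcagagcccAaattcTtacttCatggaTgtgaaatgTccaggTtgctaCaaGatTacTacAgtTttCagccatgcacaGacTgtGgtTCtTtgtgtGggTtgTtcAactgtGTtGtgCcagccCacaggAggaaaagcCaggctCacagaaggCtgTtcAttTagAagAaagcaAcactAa
The 61 differences are spread over the whole length (76.1% identity). By contrast, Rps27rt, a gene at chr9:114982366-114982739 (minus strand), annotated as protein coding and not a member, holds the Rps27 sequence without a mismatch.

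Rps27 had the smallest p-value of the members in WT. It had 100, 208 and 139 reads in WT microbead libraries, against 50, 4, 11 and 7 reads in WT sham libraries, a log2 fold change of 2.66 ± 0.80 (SE) with an adjusted p of 0.330. Rps27rt had 0, 20 and 0 reads in WT microbead libraries, against 38, 70, 98 and 48 reads in WT sham libraries. High reads of one gene went with low reads of the other, and their sum was 100, 228 and 139 reads after microbeads, against 88, 74, 109 and 55 reads after sham. With the reads of all copies added, the log2 fold change of Rps27 was 0.54 ± 0.34 (SE), near the median of the members. In Apoe-/- libraries Rps27 had 4, 121, 77 and 75 reads after microbeads, against 59, 25, 55 and 3 reads after sham, and Rps27rt 40, 0, 0 and 0 reads, against 0, 0, 0 and 36 reads. The log2 fold change of Rps27 there was 0.76 ± 0.73 (SE) alone and 0.61 ± 0.33 (SE) with its copies.

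**Figure D4:**
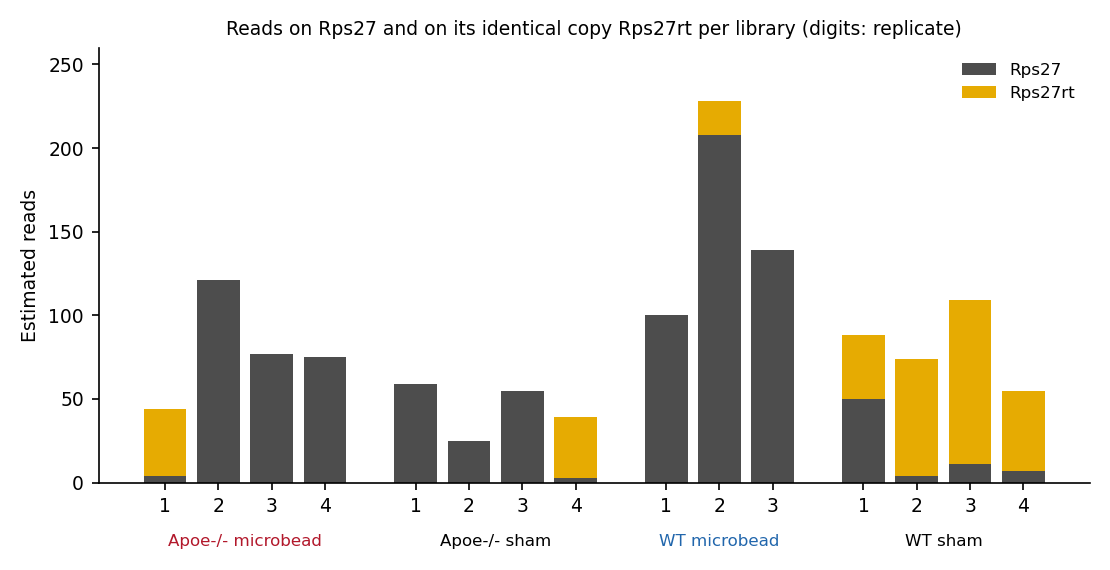
Estimated reads on Rps27 (dark) and stacked on them those on Rps27rt (yellow) in each library. In WT sham libraries 2 to 4 nearly all reads lie on Rps27rt, while in WT microbead libraries most lie on Rps27, and the summed bars of these groups run from 55 to 228 reads.

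Rps27l itself stayed low, with 2.07, 13.7, 5.83 and 0 CPM in Apoe-/- microbead libraries, against 16.7, 17.8, 6.96 and 2.61 CPM in Apoe-/- sham libraries, and 18.8, 17.0 and 9.34 CPM in WT microbead libraries, against 18.2, 24.5, 17.98 and 12.9 CPM in WT sham libraries. At its lowest library the limit that a count of 0 allows, taking 3 reads, is 4.67 CPM. Its log2 fold change was -1.09 ± 0.77 (SE) in Apoe-/- and -0.29 ± 0.61 (SE) in WT.

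Reads shared with copies touched many members. As copies, 728 other genes were assigned to a member, 721 of them annotated as pseudogenes or named -ps. Their transcripts matched the member at 95% identity or more, or their -ps symbol named it. At least 1 such copy was found for 78 of the 87 members. The copies held 16133 reads, against 84649 on the members, which is 16.01% of the total. That share was 18.4, 14.7, 15.5 and 15.7% in Apoe-/- microbead, 15.9, 17.8, 14.4 and 15.1% in Apoe-/- sham, 16.2, 16.4 and 15.2% in WT microbead and 15.6, 16.2, 16.3 and 19.5% in WT sham libraries. The complete coding sequence of 17 of 83 members is held without a mismatch by another gene, and for 15 of the 17 that other gene had reads. In such cases the reads cannot be told apart by the coding sequence.

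Rpl5 was the extreme case. It binds a ribosomal RNA with Rpl11, and its own gene had 151 reads in all, against 2358 on the transcribed processed pseudogene Gm15500 (chr7:114705217-114706235), which holds the same coding sequence. Rpl5 alone had a log2 fold change of -1.27 ± 0.65 (SE) in Apoe-/- and -0.37 ± 0.60 (SE) in WT. With its copies the values were 0.49 ± 0.28 (SE) in Apoe-/- and 0.64 ± 0.29 (SE) in WT. Rpl12 had 81.1% of its reads on copies, mostly on Gm10275 on chromosome 10. Rps6, the target of the S6 kinases and a usual readout of mTORC1, had 0.54 ± 0.42 (SE) in Apoe-/- and -0.03 ± 0.44 (SE) in WT alone, and 0.49 ± 0.26 (SE) in Apoe-/- and 0.42 ± 0.28 (SE) in WT with its copies. Rpl10, which joins the large subunit late, has its coding sequence also in Rpl10-ps3, and had 0.08 ± 0.40 (SE) in Apoe-/- and 0.66 ± 0.42 (SE) in WT alone. With copies Rpl10 had 0.48 ± 0.24 (SE) in Apoe-/- and 0.65 ± 0.26 (SE) in WT. Rps12l1, a member by symbol that is annotated as a processed pseudogene, had 0, 0, 73 and 56 reads in Apoe-/- microbead, 60, 0, 0 and 0 in Apoe-/- sham, 88, 0 and 0 in WT microbead and 0, 0, 0 and 0 in WT sham libraries. Its relative Rps12-ps3 had 23, 95, 0 and 0 reads in Apoe-/- microbead, 0, 17, 72 and 30 in Apoe-/- sham, 0, 160 and 109 in WT microbead and 51, 61, 78 and 43 in WT sham libraries. It was at 0 in every library where Rps12l1 had reads.

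**Figure D5:**
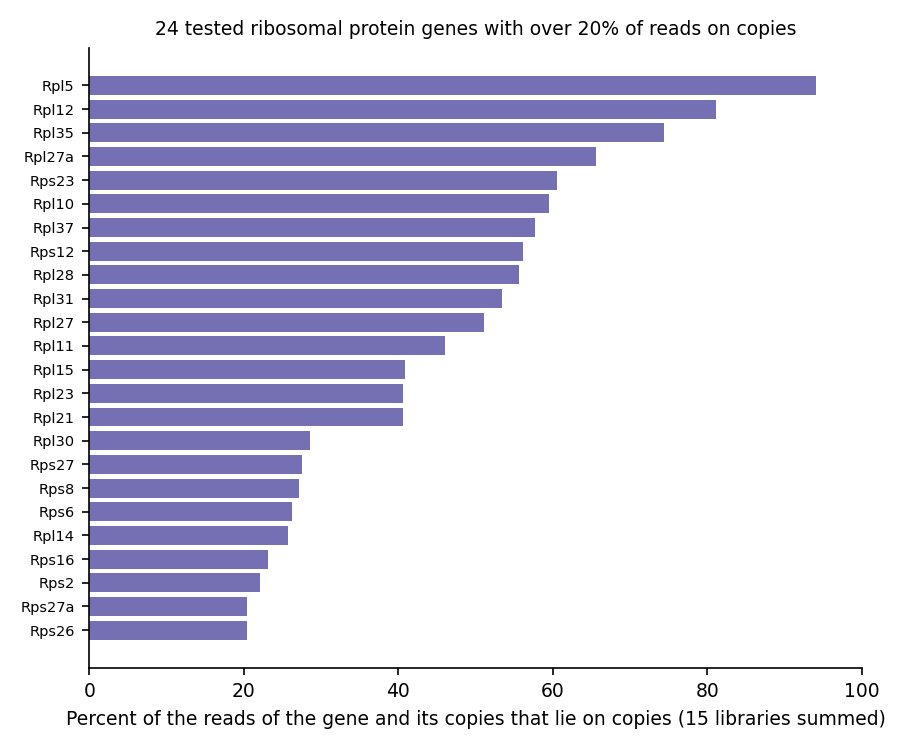
Percent of the reads of a ribosomal protein gene and its copies that lie on the copies, summed over 15 libraries, for the tested members above 20%. Rpl5 leads with 94.0%, followed by Rpl12 with 81.1%.

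The counts were taken again with these reads. With all copies added to their members, 78 of 80 tested members had a positive log2 fold change in WT (median 0.53) and 75 of 80 in Apoe-/- (median 0.41). In that setting 0 members were called in either, where 21 of 6469 genes were called in WT and 0 in Apoe-/-. An unadjusted p under 0.05 was then found for 12 of 80 members in WT, in place of 19 of 81, and for 7 in Apoe-/-, in place of 8. Before the copies were added, 7.87% of all genes in WT and 6.95% in Apoe-/- had such a p. Over the 28 protein-coding members with under 1% of reads on copies, 26 were positive in WT with a median of 0.48, and 13 of them (46.4%) had no overlap between the groups, against 6.24% of all genes. In Apoe-/- 25 of the 28 were positive with a median of 0.32, and 0 were without overlap upward, against 1.55% of all genes. Adding all copies and taking this subset were chosen after the data were seen.

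The difference between the 2 responses was tested as an interaction, Apoe-/- minus WT. No member and no gene passed the threshold (0% of 6521), 0 members had an unadjusted p under 0.05 against 3.39% of all genes, and DESeq2 called 0 members. The smallest adjusted p of a member was 0.9997. The estimate was positive for 30 of 81 members, against 50.4% of all genes, and the median was -0.17, against 0.00 over all genes. Without Apoe-/- microbead library 2, 11 members were positive, and without Apoe-/- microbead library 1, 41. Rps7 had the smallest p. Its response was 0.01 ± 0.25 (SE) in Apoe-/- and 0.66 ± 0.25 (SE) in WT, a difference of -0.65 ± 0.35 (SE) with a 95% interval of -1.34 to 0.05. Rps27 differed by -1.91 ± 1.08 (SE) alone and by 0.07 ± 0.47 (SE) with its copies. Intervals of this width do not show that the 2 genotypes responded alike.

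Between genotypes, the members stood close in sham retinas. No member was called in Apoe-/- sham against WT sham libraries, where 1 gene was (0.0153%). The log2 fold change was positive for 45 of 81 members, against 48.9% of all genes, with a median of 0.04, and 2 members had an unadjusted p under 0.05, against 8.68% of all genes. On the TPM scale that median was -0.40, where all genes shifted by -0.30. Rpl21 was the only member whose Apoe-/- sham libraries all lay above the WT sham libraries, with 143, 115, 128 and 140.3 CPM in Apoe-/- and 108, 74.7, 105 and 108 CPM in WT libraries, beside 1.32% of all genes, and 0 members lay the other way, beside 2.36%. Rpl21 was singled out after its values were seen, and 40.6% of its reads lay on copies.

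In microbead retinas no member was called between the genotypes either, where 3 of 6521 genes were (0.046%). The log2 fold change was positive for 26 of 81 members, against 51% of all genes, with a median of -0.12. The positive count was 3 without Apoe-/- microbead library 2 and 47 without Apoe-/- microbead library 1. An unadjusted p under 0.05 was found for 2 members, against 7.19% of all genes. For 0 members did the groups separate upward, against 3.11%. For 3 members every Apoe-/- library lay below every WT library (3.70%, against 3.71% of all genes), and they were Rps2, Rps7 and Rpl7l1. Rps2, which lines the mRNA entry channel with Rps3, had 8.85, 31.7, 48.8 and 51.0 CPM in Apoe-/- microbead libraries, against 92.9, 104 and 97.7 CPM in WT microbead libraries. Its log2 fold change was -1.45 ± 0.43 (SE), with an unadjusted p of 0.00297 and an adjusted p of 0.465, the smallest of any member in this comparison. In sham retinas Rps2 had 42.0, 33.2, 47.0 and 12.4 CPM in Apoe-/- libraries, against 59.9, 95.2, 80.1 and 35.3 CPM in WT libraries, at -0.97 ± 0.43 (SE). Copies held 22.1% of its reads, and with them the values were -0.93 ± 0.27 (SE) in microbead and -0.75 ± 0.26 (SE) in sham retinas. Rps27l and Rps7 had -1.62 ± 0.73 (SE) and -0.46 ± 0.25 (SE) between the microbead groups.

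Lists of genes tied to the ribosome by function were counted the same way. Fau, Rps3a1 and Rack1 are cytosolic ribosomal proteins that the symbol rule misses. Fau, made as a fusion with a ubiquitin-like protein, had 0.53 ± 0.31 (SE) in Apoe-/- and 0.52 ± 0.32 (SE) in WT. Rps3a1 had 0.44 ± 0.32 (SE) in Apoe-/- and 0.63 ± 0.33 (SE) in WT, and Rack1, a scaffold on the small subunit, 0.51 ± 0.30 (SE) in Apoe-/- and 0.58 ± 0.31 (SE) in WT. None of these passed the test. Of 16 tested other mRNAs with a TOP tract, 14 were positive in Apoe-/- (median 0.35) and 16 in WT (median 0.61), with 0 called. They encode elongation and initiation factors and also Tpt1, Pabpc1, Naca, Btf3, Npm1 and Hnrnpa1. The elongation factor Eef1a1 had 0.59 ± 0.28 (SE) in Apoe-/- and 0.83 ± 0.30 (SE) in WT, and Tpt1 0.63 ± 0.30 (SE) in Apoe-/- and 0.75 ± 0.32 (SE) in WT. For the initiation factor Eif4b the values were -0.24 ± 0.45 (SE) in Apoe-/- and 1.15 ± 0.43 (SE) in WT.

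Regulators of translation and of ribosome production were counted too. Of 19 tested genes of the mTORC1 pathway, 12 were positive in Apoe-/- (median 0.09) and 4 in WT (median -0.16). The list mixes activators such as Rheb with inhibitors such as Tsc1 and Tsc2, so these counts give no direction of the pathway. Larp1 had 0.49 ± 0.56 (SE) in Apoe-/- and -0.73 ± 0.55 (SE) in WT. Rps6kb1, an S6 kinase, had 1.02 ± 0.45 (SE) in Apoe-/- and -0.43 ± 0.42 (SE) in WT. Rheb went the other way, with -1.14 ± 0.55 (SE) in Apoe-/- and 0.24 ± 0.48 (SE) in WT. Of 17 tested ribosome biogenesis genes, 11 were positive in Apoe-/- (median 0.13) and 7 in WT (median -0.20), with the nucleolar protein Ncl at 0.57 ± 0.30 (SE) in Apoe-/- and 0.86 ± 0.30 (SE) in WT. Wdr12, of the same list and needed for large subunit assembly, had -0.84 ± 0.35 (SE) in Apoe-/- and -0.83 ± 0.36 (SE) in WT. Mitochondrial ribosomal proteins, which serve the ribosome inside mitochondria, were positive for 17 of 40 in Apoe-/- (median -0.13) and 14 of 40 in WT (median -0.12). In all these lists 0 genes were called in the microbead comparisons, where 0% of all genes in Apoe-/- and 0.199% in WT were called, and 50.8% of all genes in Apoe-/- and 49.1% in WT were positive.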

How the data were processed

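Microglia of 15 retinas were profiled with SMART-Seq2, a full-length protocol without molecular identifiers. Per the submitters' processing notes the authors used Salmon 1.4.0, R 4.0.3, DESeq2 1.30.1 and mm10. The deposited values are estimated counts and TPM per transcript, and a TPM table per gene, which the authors made from them.

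Estimated counts were summed per gene with GENCODE M21 for 116023 of 116945 transcripts and rounded, and 0.217 to 0.354% of reads per library were on the others. edgeR 4.0.16 (R 4.3.3) fitted 1 quasi-likelihood model to the 4 groups (TMM, filterByExpr, 6521 genes, Benjamini-Hochberg threshold 0.05, two-sided). Tests on simulated data recovered known changes, which were larger than the members' medians and lay in well-covered genes. Changes of the members' size were not simulated. limma 3.58.1 and DESeq2 1.42.0 served as alternatives. Copies are transcripts of other genes with at least 95% identity over at least 50% of their length and 150 bases (blastn). Genes with a -ps symbol that had no such match were assigned to the member by symbol. Intervals and the limit of 3 reads for a count of 0 cover counting error only. Members named are those fixed for their role or as paralogs, the 3 highest and 3 lowest by TPM, and the 3 with the smallest p in each comparison. Results of some genes of this rule and of the lists are not reported here. The members and lists were chosen with earlier results of these data known. Among 21 pairs of same-numbered libraries of different groups, correlations were -0.17 to 0.22, against -0.32 to 0.31 among 63 pairs with unlike numbers. Replicate numbers were not taken as pairs. As these pairs also join libraries of different genotypes, the correlations do not settle whether retinas within a genotype were paired.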

Additional observations from a re-analysis of the deposited data

Results flagged for a closer look

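In 6 of the 98 sets of 4 libraries checked, which are those of 32 named members and of the members' summed share, 1 library stood far from the other 3, where chance gives about 1 in 20 sets. In the Apoe-/- microbead group, library 2 had 103.8 CPM of Rpl22, against 33.0 to 37.3 CPM in the other 3, and 292.3 CPM of Rpl39, against 74.6 to 105 CPM. Rpl22 binds small RNAs besides its place in the large subunit, and Rpl39 lines the exit tunnel. In the same group library 1 had 17.5 CPM of Rpl5, against 8.11 to 9.31 CPM in the others. These values rest on 8 reads, against 3, 4 and 6 reads. With the reads of Gm15500 added, library 1 was the lowest, with 93 reads against 173, 168 and 162 reads. In the Apoe-/- sham group, library 1 had 179.5 CPM of Rpsa, against 117 to 127 CPM, and 143.9 CPM of Rps12l1, which had 0 reads in the other 3 libraries. In the WT sham group, library 1 had 75.3 CPM of Rps27, against 7.27 to 14.8 CPM in the others, where Rps27rt held most of the reads.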

How the results depend on the processing

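The median over the members kept its sign in both microbead comparisons under every setting, and no setting called a member in Apoe-/- microbead against sham. Leaving out 1 library gave medians of 0.07 to 0.62 in Apoe-/- and 0.41 to 0.62 in WT, and with a replicate block 0.37 and 0.41. For the interaction the range was -0.49 to 0.00, for Apoe-/- against WT -0.09 to 0.12 in sham and -0.43 to 0.07 in microbead retinas. Leaving out 1 library also gave 0 to 29 genes called in WT and 1 to 7 between the microbead groups.

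TPM tested with limma includes the satellite reads in its total, and all genes shifted with it. With pseudocounts of 1 and 0.1 the median of all genes was 0.58 and 0.74 in WT, 0.18 and 0.26 in Apoe-/-, -0.43 and -0.49 for the interaction, -0.30 and -0.43 between sham groups and -0.73 and -0.94 between microbead groups. The members' medians were 1.32 and 1.34 in WT, -0.78 and -0.80 for the interaction, -0.40 and -0.42 between sham groups and -1.19 and -1.21 between microbead groups. These fits tested 6521 genes, 81 of them members. A pseudocount of 1 called 6 members and 84 genes in WT, 10 members and 186 genes between microbead groups and 5 genes for the interaction. A pseudocount of 0.1 called 1 member and 20 genes in WT and 6 genes between microbead groups.

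With no filter on low counts, 28112 genes were tested, 86 of them members. Of these, 37 genes with 0 members were called in Apoe-/- and 124 with 2 members in WT. For the interaction 45 with 1 member were called, 41 with 2 members between sham groups and 73 with 1 member between microbead groups. With the filter, 13 genes were called in WT and DESeq2 gave 36. Adding pseudogene reads or all copies gave 21, leaving out the satellite 21, coding transcripts alone 3 and the replicate block 7. Between microbead groups 3 genes were called and DESeq2 gave 26, coding transcripts alone 1 and the block 1. The cause was not tested.

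The log2 fold change of several members turned. In WT, Rpl5 was 0.60 and 0.68 on TPM and 0.64 with pseudogenes or all copies, Rps6 was 0.66 and 0.67 on TPM, 0.021 without the filter and 0.42 with pseudogenes or all copies, and Rps27l was 0.42 and 0.44 on TPM. In Apoe-/-, Rpl5 was 0.19 and 0.27 on TPM and 0.49 with pseudogenes or all copies, Rpl38 was 0.10 on both TPM scales, and with coding transcripts alone Rpl10 was -0.087 and Rplp1 -0.030. With all copies Rps27 was 0.075 for the interaction and -0.20 between sham groups. Leaving out 1 library gave -0.36 to 0.23 for Rps6 in WT, and in Apoe-/- -0.20 to 0.48 for Rpl10, -0.45 to 0.22 for Rpl38, -0.20 to 0.18 for Rplp1 and -0.062 to 0.41 for Rps4x.

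A zero count allows up to 3.00 to 13.3 CPM per library, so levels of Rps27l, Rpl22l1 and Rpl5 are near the limit. With 3 or 4 libraries a group, changes of the size of the medians given for single members were not called at this spread.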

Other observations

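Other mRNAs with a TOP tract were also counted between the genotypes after microbeads. In Apoe-/- against WT libraries 1 of 16 was positive, against 51% of all genes, and the median log2 fold change was -0.39. Of the 16, 0 were called, against 0.046% of all genes. Between the sham groups and for the interaction 0 of the 16 were called too, against 0.0153% and 0% of all genes. Between the sham groups 5 of the 16 were positive (median -0.15), against 48.9% of all genes. For the interaction 2 of the 16 were positive (median -0.25), against 50.4% of all genes. This list was not counted with single libraries left out.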
